A study of Homo sapiens with 6 samples.

Results

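The genes described here are 10 of the NF-kappaB pathway: the subunit genes NFKB1, NFKB2 and RELB, the feedback genes NFKBIA, TNFAIP3 and BIRC3, and the target genes ICAM1, CSF1, LIF and CXCL1. They were chosen by symbol from the 29744 symbols of the count table, with earlier results of these data known. All 10 were present and passed the filter on low counts that left 14958 symbols for testing. Their RNA was measured by total RNA sequencing in 3 cultured lines of human gastric tumour cells with 2 libraries each. HER2R is a derivative of MKN45 that is resistant to HER2-TCB, a T cell bispecific antibody against HER2 (cell line label MKN45-HER2). CEAR is a derivative of MKN45 that is resistant to CEACAM5-TCB, which binds CEACAM5 instead (cell line label MKN45-CEAR). MKN45 is the sensitive line, of which the series names both as derivatives. It is unknown from the labels whether MKN45-HER2 means the resistant line itself or a modified line that it came from, so MKN45 may not be the direct parent of HER2R. All 3 were kept in the same medium with serum, and the treatment field of every library reads none. Each derivative is a single line, so what goes with resistance and what goes with that one line, any modification or its passage in culture cannot be told apart.

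NF-kappaB is a family of dimeric transcription factors that rest in the cytoplasm bound to IkB proteins and enter the nucleus when a kinase complex, IKK, has those inhibitors destroyed. In the canonical branch RELA pairs with p50, which is cut from the NFKB1 product, and is held by IkB-alpha, the NFKBIA product. In the non-canonical branch RELB pairs with p52, which is cut from the NFKB2 product p100 once the kinase NIK has accumulated. Several genes of the pathway are themselves targets, so that RNA of NFKB2, RELB, NFKBIA, TNFAIP3 and BIRC3 is commonly read as output of the pathway. Protein, processing of p100 and nuclear entry were not measured here.

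Many targets of NF-kappaB carry binding sites for it, called kappaB sites, close to their starts. The promoters of 5 of the genes are shown, to set genes whose RNA differed between lines (ICAM1, CXCL1, NFKB2) beside genes that passed in no comparison (NFKBIA, TNFAIP3). Each is the 210 bases before a RefSeq start on GRCh38.p14 (for NFKB2 the middle one of its starts), read 5′ to 3′ on the gene's strand, and capitals mark each match on either strand to the kappaB consensus or to the shorter motif GGANNTTCC.
ICAM1, chr19:10270910-10271119 (+ strand): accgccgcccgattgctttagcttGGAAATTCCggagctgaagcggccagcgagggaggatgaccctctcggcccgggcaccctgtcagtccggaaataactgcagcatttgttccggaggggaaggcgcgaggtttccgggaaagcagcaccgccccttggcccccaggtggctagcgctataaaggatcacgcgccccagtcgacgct
CXCL1, chr4:73869183-73869392 (+ strand): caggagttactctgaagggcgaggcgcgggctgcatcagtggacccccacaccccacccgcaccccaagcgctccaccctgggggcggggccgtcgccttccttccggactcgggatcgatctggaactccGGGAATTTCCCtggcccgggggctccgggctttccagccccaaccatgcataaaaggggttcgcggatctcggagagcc
NFKB2, chr10:102394368-102394577 (+ strand): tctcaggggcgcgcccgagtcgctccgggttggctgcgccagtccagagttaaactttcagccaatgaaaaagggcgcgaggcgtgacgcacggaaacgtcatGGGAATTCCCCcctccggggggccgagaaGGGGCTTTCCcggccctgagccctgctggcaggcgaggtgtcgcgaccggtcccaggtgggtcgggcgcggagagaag
NFKBIA, chr14:35404750-35404959 (- strand): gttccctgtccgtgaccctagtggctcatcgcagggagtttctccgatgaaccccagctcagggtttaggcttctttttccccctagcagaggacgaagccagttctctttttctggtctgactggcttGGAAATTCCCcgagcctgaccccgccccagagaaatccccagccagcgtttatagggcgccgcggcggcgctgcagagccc
TNFAIP3, chr6:137867049-137867258 (+ strand): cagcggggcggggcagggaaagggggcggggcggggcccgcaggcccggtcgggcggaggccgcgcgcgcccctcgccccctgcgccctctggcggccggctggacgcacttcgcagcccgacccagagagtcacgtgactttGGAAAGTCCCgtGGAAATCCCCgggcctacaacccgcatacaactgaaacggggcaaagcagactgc

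RefSeq promoter windows of 300 bases, from 250 before the start to 50 from it on, were held for 7 of the 10 genes, 10 windows in all because NFKB1 and NFKB2 have several starts. The kappaB consensus occurred in 7 of these 10 windows and in 6 of the 7 genes, all but ICAM1, and in 11.3% of all 35116 windows of the genome. GGANNTTCC occurred in 6 of the 10 windows and in 6 of the 7 genes, all but BIRC3, and in 4.56% of all windows. Both strands were searched, so a symmetric match counts on each, and matches of the 2 motifs overlapped one another in CXCL1, NFKB1, NFKBIA, TNFAIP3 and at the last of the starts of NFKB2. ICAM1 held only the shorter motif, at positions -186 to -178 from its start. The first start of NFKB2 and the second start of NFKB1 had 0 matches to either motif. The middle start of NFKB2, shown above, had more kappaB matches (4) than its last start (3). TGANTCA, the motif of AP-1 factors, was found in 0 of the 10 windows and in 7.71% of all. A match describes letters in a window, these genes are known targets of NF-kappaB, and binding was not measured.

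**Figure D1:**
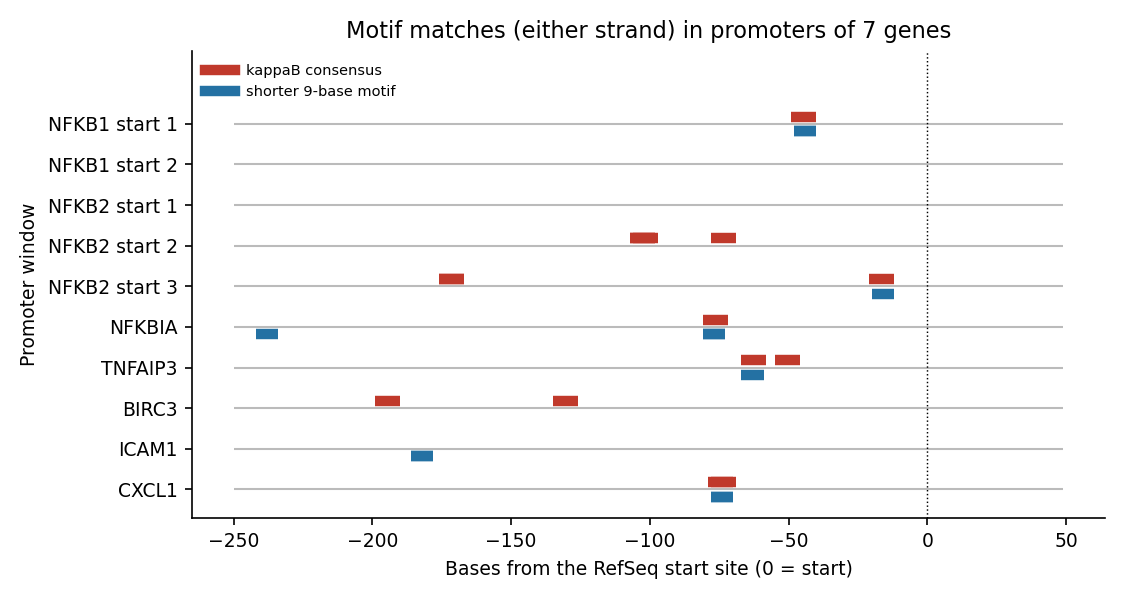
Matches on either strand to the kappaB consensus (red) and to the shorter 9-base motif GGANNTTCC (blue) in the 10 RefSeq promoter windows of 7 genes, by distance in bases from the start site. ICAM1 holds only the shorter motif, and the second start of NFKB2 holds 2 separate stretches of kappaB consensus.

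Library totals ran from 39657353 to 57964246 counts. Levels are given in CPM, counts scaled to a common library size with TMM factors, and 1 count was 0.0177 to 0.0255 CPM. The 6 epithelial markers EPCAM, KRT8, KRT18, KRT19, CDH1 and CLDN4 were present in every library. Mostly KRT8 and KRT18, they summed to 12035 to 15655 CPM in HER2R, 8381 to 10009 CPM in CEAR and 10688 to 12805 CPM in MKN45. Between HER2R and MKN45 the markers did not run alike. In HER2R EPCAM and KRT18 lay above MKN45, CDH1 and CLDN4 lay below, and KRT8 and KRT19 overlapped. Of 6 T cell markers, CD3D and CD2 had 0 counts in all libraries, and the list summed to 0.153 to 0.357 CPM in HER2R, 0.169 to 0.180 CPM in CEAR and 0.0354 to 0.159 CPM in MKN45. Of 5 myeloid markers, CSF1R and CD163 had 0 counts in all libraries, and the list summed to 3.26 to 3.49 CPM in HER2R, 2.77 to 5.64 CPM in CEAR and 4.94 to 15.1 CPM in MKN45, nearly all of it CD68. Fibroblast markers, 5 in number and mainly COL1A1, summed to 3.55 to 7.67 CPM in HER2R, 1.15 to 1.81 CPM in CEAR and 0.978 to 1.88 CPM in MKN45, with DCN at 0 throughout. Endothelial markers, 4 in number, summed to 0.204 to 0.255 CPM in HER2R, 0.0225 to 0.0241 CPM in CEAR and 0.0177 to 0.0682 CPM in MKN45, with CDH5 and KDR at 0. The part of COL1A1 and of the other non-epithelial markers in the results below was not tested. Whether the 2 libraries per line are separate cultures is not in the labels, and the p-values therefore reflect only a spread between libraries that may be technical. In bulk RNA a change in the number of cells that express a gene and a change in RNA per cell cannot be told apart.

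Gene positions are from GENCODE 29 on GRCh38. The promoter stretches shown above use RefSeq starts. Those of ICAM1 and NFKB2 lie wholly, and that of TNFAIP3 partly, inside the GENCODE gene spans. The 10 genes differed in how far their levels spread over the 6 libraries. From the lowest to the highest library, NFKBIA spanned 28.9 to 32.5 CPM, TNFAIP3 5.46 to 7.90 CPM, BIRC3 5.89 to 8.81 CPM and NFKB1 76.6 to 128 CPM. NFKB2 spanned 16.2 to 48.0 CPM, RELB 5.19 to 12.9 CPM and LIF 14.0 to 63.3 CPM. ICAM1 spanned 0.409 to 14.2 CPM, CXCL1 0.607 to 11.0 CPM and CSF1 0.213 to 2.04 CPM. The highest library was thus 1.12 times the lowest for NFKBIA, the inhibitor, and 34.6 times the lowest for ICAM1, the adhesion molecule. HER2R held the highest library for 7 of the 10 genes, CEAR for NFKB1 and TNFAIP3, and MKN45 for NFKBIA. For BIRC3 the highest library was 8.81 CPM in HER2R and 8.44 CPM in MKN45. This ranks single libraries and is no test, and its share over all tested genes is not given here.

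**Figure D2:**
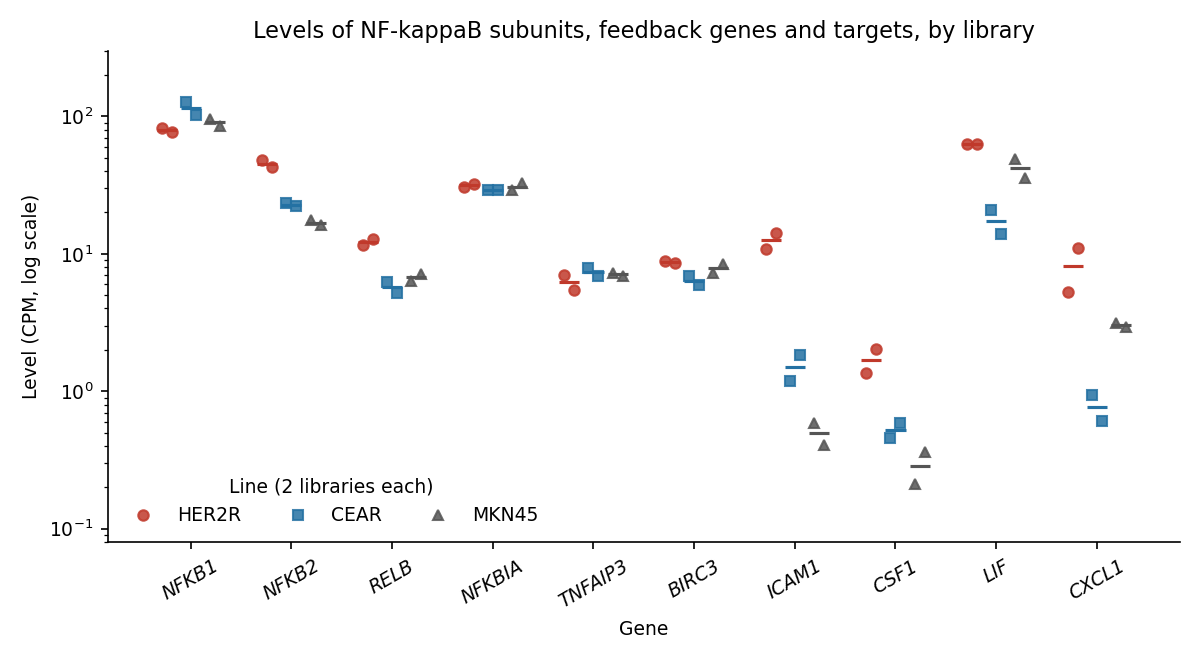
Level of each of the 10 genes in CPM on a log axis, with 1 point per library, 2 libraries per line, and a bar at the mean of each line. ICAM1 stands at 10.9 and 14.2 CPM in HER2R, above CEAR and MKN45, while the points of NFKBIA lie between 28.9 and 32.5 CPM in all lines.

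NFKB2 (chromosome 10, 102394110 to 102402529, + strand), which encodes the p100 precursor of p52, was the one of the 3 subunit genes with the largest log2 fold change in HER2R against MKN45, while RELB had the larger one in HER2R against CEAR. NFKB2 stood at 48.0 and 42.7 CPM in HER2R, 23.2 and 22.4 CPM in CEAR and 17.5 and 16.2 CPM in MKN45. The lines did not overlap, and CEAR lay between the others. In HER2R against MKN45 the log2 fold change was 1.43 (SE 0.147, edgeR adjusted p = 0.00497), a call that all 12 alternative fits kept. Against CEAR, HER2R was higher by 0.99 on the log2 scale (SE 0.145, edgeR adjusted p = 0.0132), but that call ended without HER2R library 1 (edgeR adjusted p = 0.0917), HER2R library 2 (0.0772), CEAR library 1 (0.0616) or CEAR library 2 (0.0750). NFKB2 did not pass in CEAR against MKN45 (0.44, SE 0.146, edgeR adjusted p = 0.136), although it did with the library number as a replicate block (0.0275).

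RELB (chromosome 19, 45001430 to 45038198, + strand), the partner of p52, had its highest levels in HER2R. Its levels were 11.5 and 12.9 CPM in HER2R, 6.26 and 5.19 CPM in CEAR and 6.38 and 7.07 CPM in MKN45. Both HER2R libraries lay above all 4 others. The difference passed against CEAR (log2 fold change 1.09, SE 0.214, edgeR adjusted p = 0.0265) and stood just outside the threshold against MKN45 (0.86, SE 0.211, edgeR adjusted p = 0.0523, and 0.00965 with the replicate block). It passed against MKN45 by DESeq2 (DESeq2 adjusted p = 0.00451) and with a filter at 1 CPM in 2 libraries (edgeR adjusted p = 0.0442). The call against CEAR ended without HER2R library 1 (edgeR adjusted p = 0.110), HER2R library 2 (0.142), CEAR library 1 (0.0790) or CEAR library 2 (0.129). RELB did not pass in CEAR against MKN45 (-0.23, SE 0.216, edgeR adjusted p = 0.591).

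NFKB1 (chromosome 4, 102501329 to 102617302, + strand), which encodes the p105 precursor of p50, ran in another order. It stood at 82.1 and 76.6 CPM in HER2R, 128 and 102 CPM in CEAR and 95.9 and 84.95 CPM in MKN45, so the HER2R libraries were the lowest and the CEAR libraries the highest. No comparison passed the test: the log2 fold change was -0.19 in HER2R against MKN45 (SE 0.154, edgeR adjusted p = 0.470), 0.35 in CEAR against MKN45 (SE 0.154, edgeR adjusted p = 0.240) and -0.54 in HER2R against CEAR (SE 0.154, edgeR adjusted p = 0.0656). With the replicate block NFKB1 was higher in CEAR than in MKN45 (edgeR adjusted p = 0.0405) and lower in HER2R than in CEAR (0.00512). DESeq2 called only the second of these (DESeq2 adjusted p = 0.0268).

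The remaining subunits were RELA, the main activating partner of p50, and REL, best known from lymphoid cells. RELA had 143 and 131 CPM in HER2R, 101 and 87.1 CPM in CEAR and 104 and 92.7 CPM in MKN45. HER2R was higher than CEAR (log2 fold change 0.55, SE 0.139, edgeR adjusted p = 0.0483), a call that 0 of the 6 fits leaving out a library kept (edgeR adjusted p = 0.0632 to 0.227), and RELA did not pass against MKN45 (0.48, SE 0.139, edgeR adjusted p = 0.0763, and 0.00628 with the replicate block). DESeq2 called RELA higher in HER2R than in MKN45 (DESeq2 adjusted p = 0.0255). REL had 16.8 and 14.7 CPM in HER2R, 16.1 and 14.9 CPM in CEAR and 13.2 and 12.0 CPM in MKN45, and passed in no comparison.

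Per kilobase of exon, with lengths from GENCODE 29, the subunits can be set beside one another. RELA made up 47.3% ± 0.492 of the summed level of the 5 subunits in HER2R, 39.4% ± 0.529 in CEAR and 45.6% ± 0.409 in MKN45 (SD, n = 2 each). The share of NFKB1 was 23.9% ± 0.115 in HER2R, 41.9% ± 1.73 in CEAR and 36.7% ± 0.574 in MKN45. The share of NFKB2 was 19.0% ± 0.550 in HER2R, 11.7% ± 1.09 in CEAR and 9.55% ± 0.164 in MKN45. The level of NFKB2 per kilobase was 0.816 and 0.778 times that of NFKB1 in the HER2R libraries, 0.253 and 0.306 times in CEAR and 0.254 and 0.266 times in MKN45. The HER2R ratios lay apart from all others, and those of CEAR and MKN45 overlapped. RELB held 7.60% ± 1.02 in HER2R, 4.31% ± 0.0643 in CEAR and 5.66% ± 0.806 in MKN45, and REL 2.25% to 2.70% on average in each line. These shares are descriptions, and the annotation the authors counted on is not given, so the lengths are approximate.

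**Figure D3:**
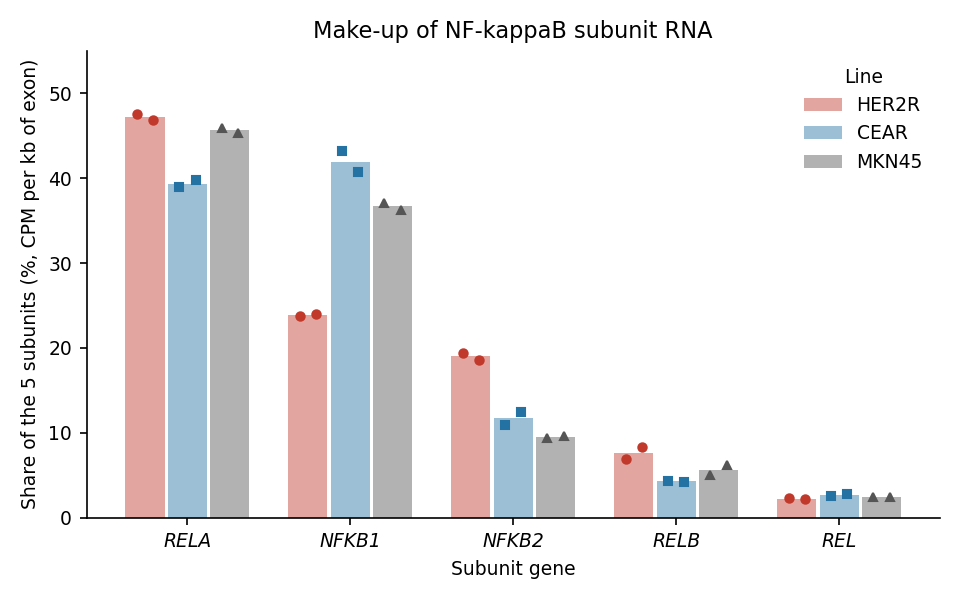
Share of each subunit gene in the summed level of the 5 NF-kappaB subunits, in percent of CPM per kilobase of exon, with bars at the mean of 2 libraries and a point per library. NFKB2 holds 19.0% in HER2R, against 11.7% in CEAR and 9.55% in MKN45, and NFKB1 holds 23.9% in HER2R, against 41.9% in CEAR and 36.7% in MKN45.

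The feedback genes did not pass the test in any of the 3 comparisons. NFKBIA (chromosome 14, 35401511 to 35404749, - strand), whose product IkB-alpha is remade quickly after activation and ends it, had 30.5 and 32.4 CPM in HER2R, 28.9 and 29.03 CPM in CEAR and 29.1 and 32.5 CPM in MKN45. The HER2R and MKN45 libraries overlapped, and the log2 fold change was 0.03 in HER2R against MKN45 (SE 0.140, edgeR adjusted p = 0.898). TNFAIP3 (chromosome 6, 137867188 to 137883312, + strand), which encodes the ubiquitin-editing enzyme A20 that shuts off signalling upstream of IKK, had 7.06 and 5.46 CPM in HER2R, 7.90 and 6.85 CPM in CEAR and 7.23 and 6.91 CPM in MKN45. Its libraries overlapped in every comparison, with log2 fold changes of -0.18 in HER2R against MKN45 (SE 0.231, edgeR adjusted p = 0.661), 0.06 in CEAR against MKN45 (SE 0.228, edgeR adjusted p = 0.914) and -0.24 in HER2R against CEAR (SE 0.232, edgeR adjusted p = 0.527). BIRC3 (chromosome 11, 102317450 to 102339403, + strand), the ubiquitin ligase cIAP2 that restrains NIK and protects cells from death receptor signals, had 8.81 and 8.54 CPM in HER2R, 6.87 and 5.89 CPM in CEAR and 7.21 and 8.44 CPM in MKN45. Its largest difference was 0.45 on the log2 scale in HER2R against CEAR (SE 0.214, edgeR adjusted p = 0.207). None of these genes was called by any of the 12 alternative fits in any comparison.

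ICAM1 (chromosome 19, 10270835 to 10286615, + strand), an adhesion molecule that integrin LFA-1 on T cells binds, differed more between HER2R and MKN45 than any of the other 9 genes. It had 428 and 555 counts in HER2R, 49 and 82 counts in CEAR and 33 and 18 counts in MKN45. This was 10.9 and 14.2 CPM in HER2R, 1.18 and 1.84 CPM in CEAR and 0.585 and 0.409 CPM in MKN45. The 3 lines did not overlap. ICAM1 was 24.7-fold higher in HER2R than in MKN45 (log2 fold change 4.63, SE 0.368, edgeR adjusted p = 0.00263), and all 12 alternative fits kept the call. It was 8.24-fold higher in HER2R than in CEAR (3.04, SE 0.323, edgeR adjusted p = 0.00649), which ended without HER2R library 2 alone (edgeR adjusted p = 0.0578). In CEAR against MKN45 the log2 fold change of 1.58 (SE 0.424, edgeR adjusted p = 0.0813) did not pass, while the replicate block (0.0211) and DESeq2 (DESeq2 adjusted p = 0.00368) called it.

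CSF1 (chromosome 1, 109910242 to 109930992, + strand), the growth factor of macrophages, was scarce in every line, with its highest levels in HER2R. It had 53 and 80 counts in HER2R, 19 and 26 in CEAR and 12 and 16 in MKN45. This was 1.35 and 2.04 CPM in HER2R, 0.458 and 0.584 CPM in CEAR and 0.213 and 0.364 CPM in MKN45. The lines did not overlap. It rose in HER2R against MKN45 (log2 fold change 2.58, SE 0.476, edgeR adjusted p = 0.0257), a call that ended without HER2R library 1 (edgeR adjusted p = 0.0878), HER2R library 2 (0.145), MKN45 library 1 (0.103) or MKN45 library 2 (0.0752). Against CEAR it stood just outside the threshold (1.69, SE 0.438, edgeR adjusted p = 0.0508, and 0.00718 with the replicate block), and in CEAR against MKN45 it did not pass (0.89, SE 0.573, edgeR adjusted p = 0.412). DESeq2 called CSF1 higher in HER2R than in CEAR (DESeq2 adjusted p = 0.0473).

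LIF (chromosome 22, 30240447 to 30246851, - strand), a cytokine of the interleukin-6 family that signals through LIFR and gp130, was the only one of the 10 genes to pass the test in CEAR against MKN45, and it fell. It had 63.3 and 63.2 CPM in HER2R, 20.7 and 14.0 CPM in CEAR and 48.6 and 35.6 CPM in MKN45. Again the lines did not overlap, with HER2R the highest. The log2 fold change was -1.28 in CEAR against MKN45 (SE 0.237, edgeR adjusted p = 0.0314), and the call ended without HER2R library 1 (edgeR adjusted p = 0.0816), HER2R library 2 (0.0795), CEAR library 2 (0.116) or MKN45 library 1 (0.106). LIF was 3.64-fold higher in HER2R than in CEAR (1.87, SE 0.240, edgeR adjusted p = 0.00942), a call that ended without HER2R library 1 (0.0646) or HER2R library 2 (0.0723). In HER2R against MKN45 it did not pass (0.59, SE 0.231, edgeR adjusted p = 0.156, and 0.0137 with the replicate block).

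CXCL1 (chromosome 4, 73869393 to 73871242, + strand), a chemokine that draws neutrophils, lay on either side of MKN45 in the derivatives. It had 5.25 and 11.0 CPM in HER2R, 0.940 and 0.607 CPM in CEAR and 3.15 and 2.96 CPM in MKN45. The lines did not overlap, and the HER2R libraries differed from one another more than those of the other lines did. It was 10.6-fold higher in HER2R than in CEAR (log2 fold change 3.40, SE 0.480, edgeR adjusted p = 0.0122), and the call ended without HER2R library 2 (log2 fold change 2.77, edgeR adjusted p = 0.0624) or CEAR library 2 (3.11, edgeR adjusted p = 0.0629). Neither difference from MKN45 passed: 1.41 in HER2R (SE 0.399, edgeR adjusted p = 0.0732, and 0.0147 with the replicate block) and -1.99 in CEAR (SE 0.501, edgeR adjusted p = 0.0707, and 0.0132 with the block). DESeq2 called both (DESeq2 adjusted p = 0.0195 in HER2R and 0.00144 in CEAR). Without HER2R library 2 the log2 fold change in HER2R against MKN45 was 0.78 (edgeR adjusted p = 0.315). The level of CXCL1 is uncertain where reads were shared with its near relatives CXCL2 and CXCL3. CXCL2 had 1.04 and 1.94 CPM in HER2R, 0.819 and 0.674 CPM in CEAR and 1.43 and 0.682 CPM in MKN45. CXCL3 had 4.48 and 5.97 CPM in HER2R, 2.46 and 2.47 CPM in CEAR and 4.16 and 3.57 CPM in MKN45, so in CEAR it stood above CXCL1.

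In HER2R against MKN45, 3 of the 10 genes rose (ICAM1, NFKB2 and CSF1), 0 fell and 7 were not called, where 9.74% of all tested genes were called, 4.89% as higher and 4.85% as lower. In CEAR against MKN45, 0 rose, 1 fell (LIF) and 9 were not called, where 6.19% of all tested genes were called, 2.57% as higher and 3.62% as lower. In HER2R against CEAR, 5 were higher, 0 were lower and 5 were not called, where 14.1% of all tested genes were called, 7.32% as higher and 6.75% as lower. Where edgeR called 0, an unadjusted p under 0.05 was found for 0 genes as lower in HER2R than in MKN45, for 2 as higher in CEAR than in MKN45 and for 1 as lower in HER2R than in CEAR, and DESeq2 called 0, 1 and 1. The share of all tested genes at an unadjusted p under 0.05 is not given here. Counts at that threshold, for these genes and for the lists below, therefore cannot be read as more or fewer than usual. With the replicate block 6 of the 10 were called in HER2R against MKN45 (33.7% of all tested genes), 5 in CEAR against MKN45 (25.8%) and 7 in HER2R against CEAR (38.2%). In HER2R against CEAR, leaving out a library of HER2R or CEAR lowered the count for the 10 genes and the count over all tested genes. In CEAR against MKN45 the call of LIF was lost in some fits without a library, and calls over all tested genes were fewer in each such fit. These fits rest on 1 library in a line, so the loss cannot be read as particular to these genes. DESeq2 called 5 of the 10 in HER2R against MKN45 (18.9% of all tested genes), 3 in CEAR against MKN45 (14.0%) and 7 in HER2R against CEAR (22.9%).

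The median log2 fold change of the 10 was 0.72 in HER2R against MKN45, where that of all tested genes was -0.02. It was -0.01 in CEAR against MKN45 (all tested genes -0.00019) and 1.04 in HER2R against CEAR (all tested genes 0). The libraries of HER2R lay wholly above those of MKN45 for 7 genes and wholly below for 1, as they did for 27.8% and 29.3% of all tested genes. Those of CEAR lay above MKN45 for 4 and below for 5 (25.0% and 25.6% of all), and those of HER2R above CEAR for 8 and below for 1 (31.0% and 30.3% of all). The comparisons share libraries pairwise, so they are not independent of one another. The 10 genes were chosen with earlier results of these data known. Their counts and medians beside all tested genes are therefore descriptions and not tests of an independently chosen set.

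**Figure D4:**
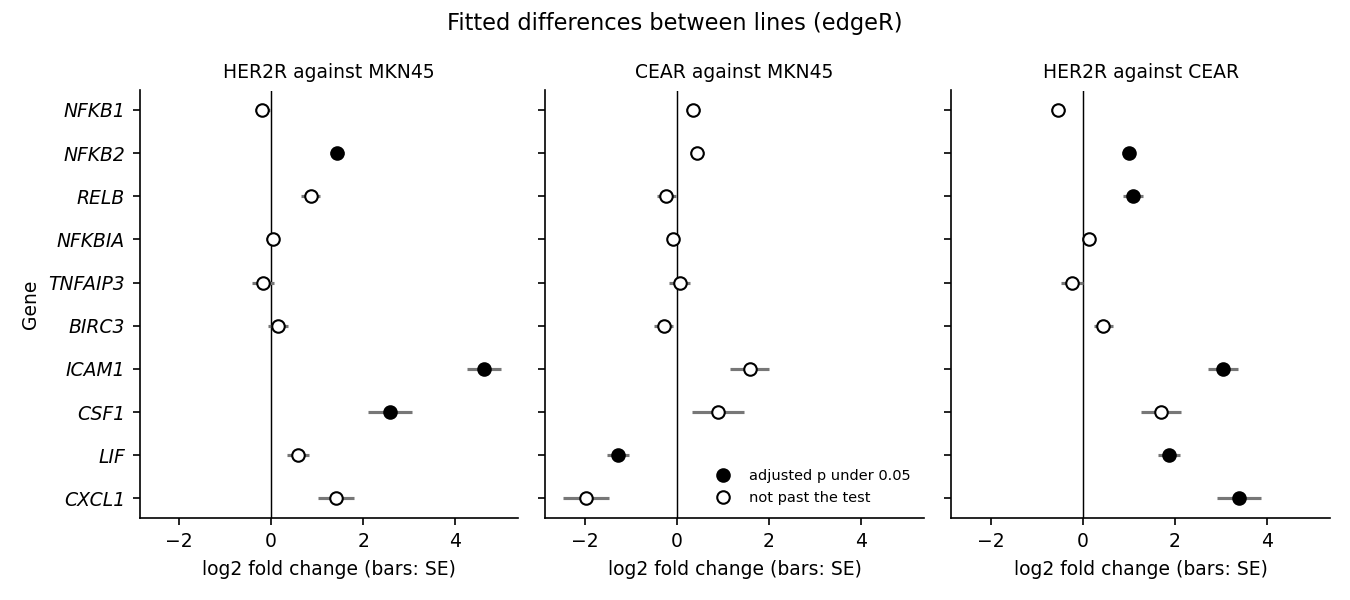
Fitted log2 fold change of each gene in the 3 comparisons, with bars of 1 SE and filled points for an edgeR adjusted p under 0.05. ICAM1 is farthest from 0 in HER2R against MKN45 at 4.63, LIF is filled in CEAR against MKN45 at -1.28, and NFKBIA, TNFAIP3 and BIRC3 are open in every panel.

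Set per kilobase of exon, the order of levels among the 10 also differed by line. In HER2R the highest were LIF (15.9 ± 0.0231 CPM per kilobase), NFKBIA (13.3 ± 0.566), NFKB1 (12.7 ± 0.626) and NFKB2 (10.1 ± 0.840). In CEAR they were NFKB1 (18.4 ± 2.92), NFKBIA (12.2 ± 0.0436), NFKB2 (5.09 ± 0.126) and LIF (4.38 ± 1.19). In MKN45 they were NFKB1 (14.4 ± 1.23), NFKBIA (12.97 ± 1.01), LIF (10.6 ± 2.32) and NFKB2 (3.76 ± 0.198). Among the 4 highest of each line, neighbours within 1 SD of each other were NFKBIA and NFKB1 in HER2R, and NFKB2 and LIF in CEAR. CSF1 was the lowest in each line, at 0.313 ± 0.0901 in HER2R, 0.0962 ± 0.0165 in CEAR and 0.0532 ± 0.0197 in MKN45.

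Among 10 other genes of the core machinery (RELA, REL, further IkB proteins and the IKK subunits), 0 rose, 0 fell and 10 did not pass in HER2R against MKN45, and likewise in CEAR against MKN45. In HER2R against CEAR 1 was higher, which was RELA, and 9 did not pass. The list's median log2 fold change was -0.03 in HER2R against MKN45, 0.09 in CEAR against MKN45 and -0.07 in HER2R against CEAR. Of 25 upstream kinases and adaptors, 2 rose, 2 fell and 21 did not pass in HER2R against MKN45. BCL10, which links antigen and G protein-coupled receptors to IKK, rose to 105 ± 9.37 CPM in HER2R, against 37.4 ± 4.18 CPM in MKN45 (log2 fold change 1.49, edgeR adjusted p = 0.00628, up to 0.0566 without a library). TRAF2, a ubiquitin ligase of TNF receptor signalling, rose by less (0.66, edgeR adjusted p = 0.0422, up to 0.182 without a library). CARD10, a scaffold that partners BCL10 (-0.59, edgeR adjusted p = 0.0416, up to 0.188), and MYD88, the adaptor of Toll-like and interleukin-1 receptors (-0.56, edgeR adjusted p = 0.0436, up to 0.217), fell. None of the 25 was called by edgeR in CEAR against MKN45 without a block. In HER2R against CEAR, BCL10 was higher (1.10, edgeR adjusted p = 0.0138, up to 0.0945) and RIPK1, a kinase that carries TNF signals to IKK, was lower (-0.82, edgeR adjusted p = 0.0130, up to 0.0923), and 23 did not pass. Where edgeR called 0 of the core genes, an unadjusted p under 0.05 was found for 2 higher and 1 lower in HER2R against MKN45, and for 1 higher and 1 lower in CEAR against MKN45. DESeq2 called 1 core gene higher and 0 lower in each of these comparisons. Of the kinases and adaptors in CEAR against MKN45, 2 were higher and 1 lower at an unadjusted p under 0.05, and DESeq2 called 2 higher and 0 lower. With the replicate block, 2 core genes were called higher and 0 lower in HER2R against MKN45, 1 higher and 1 lower in CEAR against MKN45, and 2 higher and 1 lower in HER2R against CEAR. The block called 5 kinases and adaptors higher and 6 lower in HER2R against MKN45, 2 higher and 1 lower in CEAR against MKN45, and 3 higher and 5 lower in HER2R against CEAR. Over all tested genes, edgeR called 9.74% in HER2R against MKN45, 6.19% in CEAR against MKN45 and 14.1% in HER2R against CEAR. With the block these shares were 33.7%, 25.8% and 38.2%, in either direction. By DESeq2 they were 18.9%, 14.0% and 22.9%.

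Of 18 tested upstream receptors, 2 rose, 1 fell and 15 did not pass in HER2R against MKN45. TNFRSF1B, a TNF receptor, rose (0.72, edgeR adjusted p = 0.0333, up to 0.175 without a library), and TNFRSF11A, the receptor RANK, fell to 50.6 ± 2.08 CPM in HER2R, against 112 ± 12.8 CPM in MKN45 (-1.14, edgeR adjusted p = 0.0134, up to 0.109). TLR2, a Toll-like receptor of bacterial lipoproteins, had 46 counts in HER2R and 2 in MKN45 (29.4-fold, 95% counting interval 7.70 to 250.4, edgeR adjusted p = 0.0356, up to 0.152 without a library). TLR2 passed the filter on low counts only through HER2R, so a call could only be higher in HER2R. Of the 18 receptors, 1 rose and 3 fell in CEAR against MKN45, where 2.57% of all tested genes were called as higher and 3.62% as lower. CD40, which signals to the non-canonical branch, rose to 4.62 ± 0.710 CPM in CEAR, against 0.413 ± 0.284 CPM in MKN45 (3.54, edgeR adjusted p = 0.0115), and kept its call in all 6 fits without a library (up to 0.0462). TLR3, a sensor of double-stranded RNA, fell to 7 counts in CEAR, against 538 in MKN45 (edgeR adjusted p = 0.0190, up to 0.0850), and TNFRSF11A (-0.97, edgeR adjusted p = 0.0252, up to 0.117) and EDAR, the ectodysplasin receptor (-2.25, edgeR adjusted p = 0.0366, up to 0.114), fell too. In HER2R against CEAR TLR3 (edgeR adjusted p = 0.0228, up to 0.110), EDAR (0.0380, up to 0.171) and TLR2 (46 counts in HER2R against 0 in CEAR, at least 16.8-fold, edgeR adjusted p = 0.0265, up to 0.121) were higher, and CD40 was lower (-1.77, edgeR adjusted p = 0.0321, up to 0.166). The list's median log2 fold change was 0.22 in HER2R against MKN45 and -0.50 in CEAR against MKN45, the second of which is -0.25 with TLR2 set at its floor of 3 counts per line. The replicate block called 5 receptors higher and 2 lower in HER2R against MKN45, 4 higher and 6 lower in CEAR against MKN45, and 8 higher and 1 lower in HER2R against CEAR. Of all tested genes, 9.74%, 6.19% and 14.1% were called in these comparisons by edgeR, and 33.7%, 25.8% and 38.2% with the block.

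Of 11 tested feedback regulators beside NFKBIA, TNFAIP3 and BIRC3, 1 rose in HER2R against MKN45 and 0 rose or fell in CEAR against MKN45 by edgeR, where 2 were higher and 2 lower at an unadjusted p under 0.05 and DESeq2 called 0 higher and 1 lower. PELI1, a ubiquitin ligase that acts in Toll-like receptor signalling, rose in HER2R (0.98, edgeR adjusted p = 0.0207, up to 0.137 without a library). In HER2R against CEAR TNIP1, which helps A20 bind its targets, was higher (0.75, edgeR adjusted p = 0.0256, up to 0.140), and N4BP1 (-0.56, edgeR adjusted p = 0.0483, up to 0.225) and the deubiquitinase CYLD (-0.59, edgeR adjusted p = 0.0494, up to 0.224) were lower. Of 10 tested survival and growth targets, 1 rose in HER2R against MKN45, the urokinase gene PLAU, at 24.8 ± 8.40 CPM in HER2R against 4.11 ± 0.278 CPM in MKN45 (2.59, edgeR adjusted p = 0.0378, up to 0.166). The same list had 2 genes that fell in CEAR against MKN45: XIAP, an inhibitor of caspases (-0.94, edgeR adjusted p = 0.0128, up to 0.0744), and BCL2L1, which encodes the death inhibitor BCL-XL (202 ± 43.2 CPM in CEAR against 411 ± 36.9 CPM in MKN45, -1.02, edgeR adjusted p = 0.0298, up to 0.137). XIAP (0.68, edgeR adjusted p = 0.0221, up to 0.123), BCL2L1 (0.91, edgeR adjusted p = 0.0282, up to 0.145) and GADD45B, a stress response gene (1.54, edgeR adjusted p = 0.0427, up to 0.202), were higher in HER2R than in CEAR. With the replicate block, 2 feedback regulators were higher and 1 lower in HER2R against MKN45, 1 higher and 2 lower in CEAR against MKN45, and 4 higher and 2 lower in HER2R against CEAR. Of the survival and growth targets it called 4 higher and 1 lower in HER2R against MKN45, 1 higher and 2 lower in CEAR against MKN45, and 5 higher and 1 lower in HER2R against CEAR. The shares of all tested genes called in these comparisons were 9.74%, 6.19% and 14.1% by edgeR, and 33.7%, 25.8% and 38.2% with the block. By DESeq2 they were 18.9%, 14.0% and 22.9%.

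Of 26 further cytokine and adhesion targets, 16 were below the filter on low counts, 4 of them with 0 counts in all 6 libraries (VCAM1, SELE, CXCL5 and CXCL6, singled out after their values were seen). A count of 0 allows a level of up to 0.0531 to 0.0765 CPM per library, counting error only. Of the 10 tested, 1 rose, 0 fell and 9 did not pass in HER2R against MKN45. It was IL32, an inflammatory cytokine gene, at 43.1 and 47.3 CPM in HER2R, 2.67 and 5.73 CPM in CEAR and 0.248 and 1.77 CPM in MKN45 (log2 fold change against MKN45 5.56, edgeR adjusted p = 0.00900, up to 0.0590 without a library). In HER2R against CEAR IL32 (3.42, edgeR adjusted p = 0.0209, up to 0.107), the neutrophil chemokine CXCL8, listed in the table as IL8 (2.24, edgeR adjusted p = 0.0417, up to 0.200), and CXCL3 (1.08, edgeR adjusted p = 0.0479, up to 0.228) were higher and 0 lower. CXCL8 stood at 5.78 and 10.7 CPM in HER2R, 2.53 and 0.989 CPM in CEAR and 3.44 and 1.96 CPM in MKN45. None of the 10 was called by edgeR in CEAR against MKN45, where 2 were higher and 2 lower at an unadjusted p under 0.05 and DESeq2 called 1 higher and 1 lower. The replicate block called 3 of the 10 higher and 1 lower in HER2R against MKN45, 2 higher and 3 lower in CEAR against MKN45, and 6 higher and 0 lower in HER2R against CEAR. Among all tested genes, edgeR called 9.74%, 6.19% and 14.1% in these comparisons, and 33.7%, 25.8% and 38.2% with the block. DESeq2 called 18.9%, 14.0% and 22.9% of them.

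The receptors of the secreted and surface products were mostly at or near 0 counts. CSF1R, CXCR1 and CXCR2, which bind CSF1 and CXCL1, had 0 counts in all 6 libraries, and ITGAL and ITGAM, integrin chains that bind ICAM1, had 0 to 4 counts per line. ITGB2, the shared chain of those integrins, had 82 counts in HER2R, 51 in CEAR and 6 in MKN45 and did not pass in HER2R against MKN45 (edgeR adjusted p = 0.0592), where it did with the replicate block (0.0141), nor in the other comparisons. LIFR, the specific chain of the LIF receptor, rose in both derivatives, at 9.56 ± 3.02 CPM in HER2R and 14.9 ± 1.64 CPM in CEAR, against 2.42 ± 0.393 CPM in MKN45. Its log2 fold change was 1.98 in HER2R against MKN45 (edgeR adjusted p = 0.0154, up to 0.0867 without a library) and 2.62 in CEAR against MKN45 (edgeR adjusted p = 0.00868), where all 6 fits without a library kept the call (up to 0.0437). IL6ST, which encodes the gp130 chain, had 163 ± 12.1 CPM in HER2R, 104 ± 0.761 CPM in CEAR and 123 and 105 CPM in MKN45, and was higher in HER2R than in CEAR (0.65, edgeR adjusted p = 0.0299, up to 0.152). Against MKN45 it did not pass (0.51, edgeR adjusted p = 0.0618, and 0.00697 with the replicate block), and LIFR in HER2R against CEAR did not either (-0.64, edgeR adjusted p = 0.164, and 0.0205 with the block). Most calls named from the lists were lost in some fit that left out a library, and calls over all tested genes were fewer in each such fit. The share of all called genes that held in every such fit is not given here. The losses therefore cannot be read as particular to these lists.

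**Figure D5:**
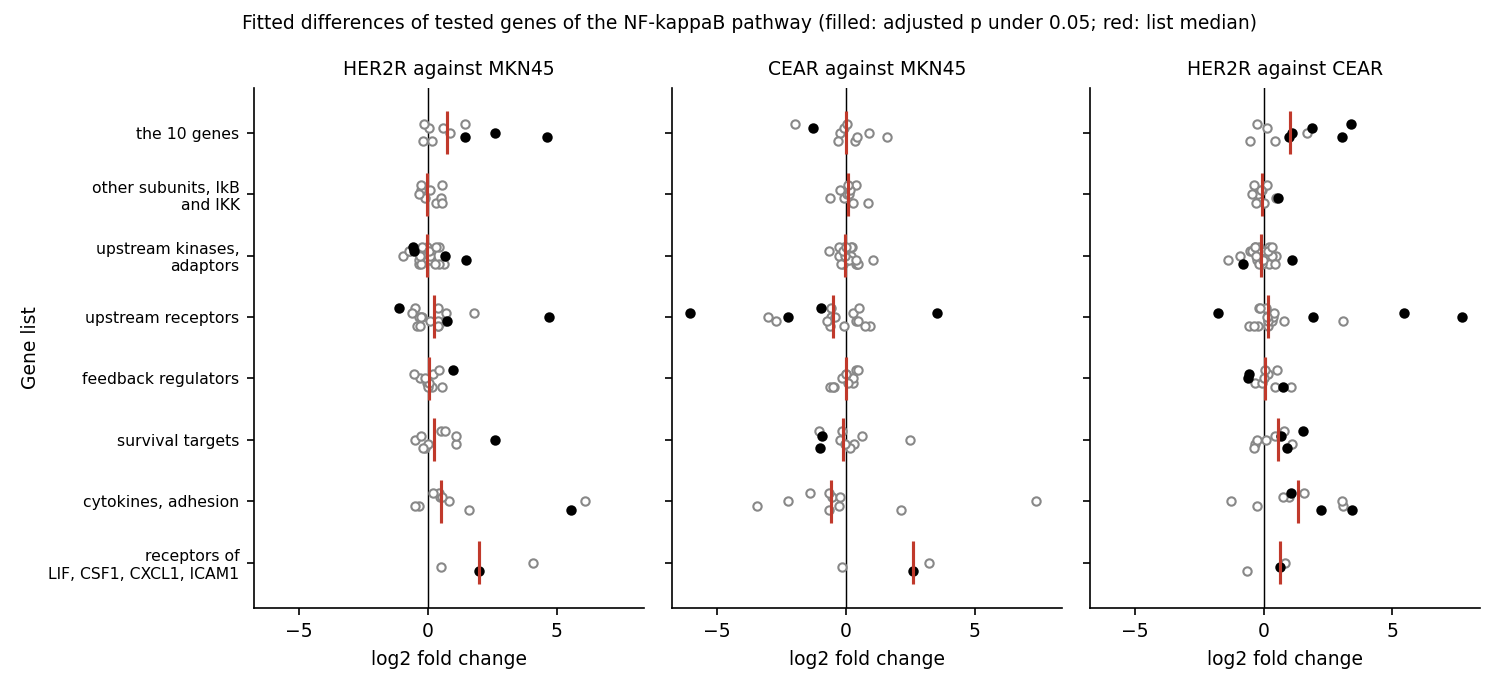
Fitted log2 fold changes of the tested genes of each list in the 3 comparisons, with 1 point per gene, filled at an edgeR adjusted p under 0.05, and a red bar at the list median. The 10 genes have medians of 0.72, -0.01 and 1.04 in the panels from left to right, and fitted values of genes with 0 counts in a line, such as TLR2 and CX3CL1, are no bounds.

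The genes whose log2 level over the 6 libraries ran most like those called in HER2R against MKN45 were found among genes of at least 5 CPM on average. For NFKB2 they were ZSCAN29, RNF19A and EPN2, with Pearson correlations of 0.998, 0.998 and 0.995. For ICAM1 they were HNRNPLL, AZIN1 and ZSWIM6 (0.996, 0.994 and 0.993), and for CSF1 PARD3, PPP1R15A and CWC15 (0.997, 0.995 and 0.994). These values rest on only 6 libraries in 3 lines, and the genes named head longer lists. At the lower bound of 0.95, 203 genes reached it with NFKB2 (1.87% of 10866), 175 with ICAM1 (1.61% of 10867) and 115 with CSF1 (1.06% of 10867).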

How the data were processed

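The deposited values are raw counts per gene symbol, whole numbers in all 6 libraries, and all columns matched a sample. Per the submitters' processing notes, GRCh38 is the listed build and limma a listed tool, with no step given. The sources used here name no aligner, counter or annotation. Per the labels' protocols, libraries were stranded total RNA with ribosomal depletion.

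From these counts, filterByExpr by line kept 14958 of 29744 symbols, TMM factors scaled the libraries, and edgeR 4.0.16 (R 4.3.3) fitted a quasi-likelihood model of line to all 6 libraries. The p-values were adjusted by Benjamini-Hochberg over all tested genes, and genes under 0.05 were called. The SE was taken as the size of the log2 fold change divided by the root of the F statistic. Alternatives were a replicate block, RLE factors, no filter, a filter at 1 CPM in 2 libraries, DESeq2 1.42.0 and leaving out each library, where a line left with 1 is assumed to vary like the others. The legacy quasi-likelihood method was added after seeing the data.

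Library numbers carry no stated meaning, but number 2 minus number 1 correlated between lines over the tested genes, at 0.378 for HER2R and MKN45, 0.545 for CEAR and MKN45 and 0.355 for HER2R and CEAR. The replicate block is therefore given where it changes a call of the 10 genes, RELA or REL, and for the lists by its counts of calls. Both libraries of each line differed beyond sampling noise (chi-square over degrees of freedom 60.7 in HER2R, 90.0 in CEAR and 127.5 in MKN45).

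The 10 genes and the lists were chosen with earlier results of these data known. Beside the 10, RELA and REL were named, with every called gene of a list, up to 4 per list, direction and comparison. Of 121 list symbols 2 matched by a RefSeq synonym and the others directly. The fit was also run on simulated counts drawn without any effect of library number, and its outcome is not given here. Promoters are from RefSeq (GRCh38.p14) and exon lengths from GENCODE 29. Floors take 3 counts, and counting intervals cover counting error only.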

Additional observations from a re-analysis of the deposited data

Results flagged for a closer look

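The effect of a derivative against MKN45 differed between HER2R and CEAR for 5 of the 10 genes by the direct test of HER2R against CEAR (edgeR adjusted p under 0.05), where 14.1% of all tested genes were called. Leaving out a library of HER2R or CEAR lowered this count, and it lowered the count over all tested genes as well. The effect in HER2R minus that in CEAR was 0.99 on the log2 scale for NFKB2, 1.09 for RELB, 3.04 for ICAM1, 1.87 for LIF and 3.40 for CXCL1. For LIF and CXCL1 the fitted change against MKN45 was upward in HER2R (0.59 and 1.41) and downward in CEAR (-1.28 and -1.99), of which the fall of LIF in CEAR alone passed the test.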

How the results depend on the processing

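The replicate block called 6 of the 10 genes in HER2R against MKN45, 5 in CEAR against MKN45 and 7 in HER2R against CEAR, and 5040, 3860 and 5717 genes in all, against 1457, 926 and 2105 without it. DESeq2 called 5, 3 and 7 of the 10, and 2820, 2098 and 3432 in all. Leaving out 1 library, which also takes away samples, gave 2 to 3, 0 to 1 and 0 to 5 of the 10, and 189 to 1136, 253 to 428 and 102 to 1856 in all. RLE factors, both filters and the legacy method kept these counts within 1.5 times.

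Of 180 fold changes of the 10 genes refitted without a library, 156 kept direction and side of the threshold, 21 lost a call and 3 changed sign. The sign changed for NFKBIA in HER2R against MKN45 without HER2R library 2 (-0.011) or MKN45 library 1 (-0.040, in a range up to 0.11 without a library), and for TNFAIP3 in CEAR against MKN45 without CEAR library 1 (-0.045, in a range up to 0.16). None of these was called. Of 180 under the other settings, 164 kept both and 16 gained a call, the cause of which was not tested. With 2 libraries per line and 12 to 80 counts per library for CSF1, depth and replication limit what these tests can show for the scarcest genes.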
